A study of Mus musculus with 38 samples.

Results

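Irradiated adolescent spleens (AP) were compared with unirradiated adolescent spleens (A) in 19 of the 38 arrays of the series, 10 AP and 9 A, which were chosen by the age and dose named for each column of the signal table. All mice were male C57BL/6, and A and AP mice were 68 days old. AP mice received whole-body protons in 3 daily fractions of 0.5 Gy, and A mice were handled in the same way without irradiation. Every mouse, A mice included, carried a subcutaneous Lewis lung carcinoma (LLC) tumor, from cells of a C57BL/6 lung carcinoma line injected into the back on the day of the first fraction. Spleens were collected when the tumor had reached a set volume, so the values describe spleens at the end of tumor growth and not in the hours after irradiation. The other 19 arrays are 9 unirradiated (O) and 10 irradiated (OP) spleens of 736-day-old mice with the same tumor and dose, and they entered the fit and the comparison of ages only. Replicates were run as individual samples, and the table ties each array to a group and not to a single mouse.

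The spleen filters blood in its red pulp, where macrophages take up old red cells, and holds B and T lymphocytes in its white pulp. In mice it also makes red cells, and it does so more when the bone marrow is under demand, as in tumor-bearing or irradiated animals. Lymphocytes are among the most radiosensitive cells of the body, and erythroid precursors are among the dividing cells of the spleen. In whole-spleen RNA, fewer cells of a type and less RNA per cell cannot be told apart.

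Irradiation and array brightness moved together. Brightness, the mean of the 20 brightest probe signals of an array, had a median of 24025 in A (lowest 21055, highest 32917) and of 29868 in AP (lowest 27311, highest 32700). The widest gap, from 25703 to 27311, separated 7 dim A arrays from 2 bright A arrays (28992 and 32917) and from all 10 AP arrays. Probes above background made up 37.9% to 49.4% of the array in A and 45.5% to 54.4% in AP. Brightness and irradiation could be told apart only through the bright unirradiated arrays, 2 of A and 2 of O. Each change is therefore given from 2 fits over all 38 arrays, one without and one with brightness (bright or dim) as a term, as the log2 fold change of AP over A with its standard error (SE) and Benjamini-Hochberg adjusted p, both from limma.

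**Figure D1:**
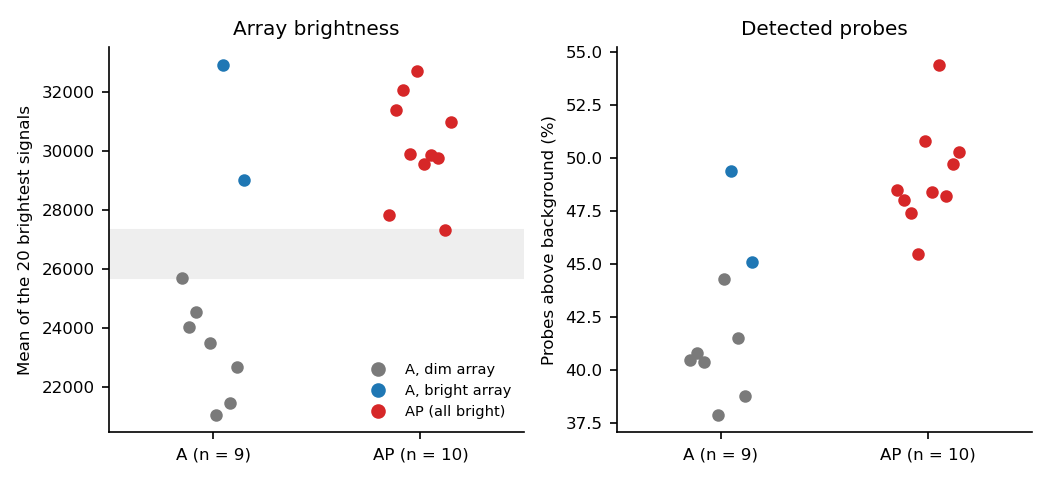
Brightness (left, mean of the 20 brightest signals) and probes above background (right, percent of the array) of each of the 9 A and 10 AP arrays, 1 point per array, with the gap from 25703 to 27311 shaded. All 10 AP arrays lie above the gap together with 2 of the 9 A arrays.

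Arrays are numbered by their column order within a group. AP array 8 stood apart from the other 9 AP arrays, with the highest mean log2 signal of 25 erythroid genes (12.23, against 11.42 to 11.90) and the lowest of 18 T cell genes (6.60, against 6.97 to 7.67). A array 3 and AP array 3 carried RNA of the exocrine pancreas, an organ that adjoins the spleen, with mean log2 signals of 11.40 and 8.24 over 9 digestive enzyme genes, against 5.34 to 5.84 on the other 17 arrays. Counts of 3 or more in a gene list are also given without AP array 8, or without A array 3 and AP array 3, where that moved them by over 1.5 times, and smaller counts moved by at most 2. Defining spleen genes, among them Cd3e, Vcam1 and Spic, were above background on all 19 arrays.

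Of 17158 genes tested, 5619 (32.7%) passed an adjusted p of 0.05 without the brightness term, 2884 (16.8%) higher and 2735 (15.9%) lower in AP. With the term 977 passed (5.69%), 519 (3.02%) higher and 458 (2.67%) lower. In both fits and in the same direction 725 genes were called (4.23%), 436 (2.54%) higher and 289 (1.68%) lower, and no gene was called in opposite directions. The median change of all genes was 0.01 without and -0.02 with the term. Between the groups, 336 genes (1.96%) had all 10 AP arrays above all 9 A arrays and 352 (2.05%) had all AP arrays below. Of the 725 genes, 151 had AP wholly above and 116 wholly below A.

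These counts leaned on a few arrays. Without AP array 8 the genes called in both fits numbered 421, of which 420 were among the 725, and without A array 3 and AP array 3 they numbered 914, of which 704 were among the 725. With A array 8, A array 9 (the bright ones) or O array 9 left out in turn, 0.863%, 1.25% and 1.6% of genes were called in both fits, against 4.23% with all arrays. With A and AP arrays alone, 0.216% were called with the term. Among the bright arrays only, 126 of the 725 were still called. With array medians aligned in place of quantile normalization, the median of all genes moved to 0.34 without the term, 7702 genes were called higher and 230 lower, and with the term 125 were higher and 172 lower. Relative to the median of all genes and without the term, most of the 41 lists with at least 9 genes tested kept their direction under that scaling. The median turned from below to above 0 for B cells (-0.03 to 0.31), dendritic cells (-0.06 to 0.08), mature neutrophils (-0.21 to 0.04), class II presentation (-0.15 to 0.26), class I presentation (-0.0013 to 0.38), B cell receptor signaling (-0.25 to 0.02), JAK-STAT signaling (-0.15 to 0.14), ribosome biogenesis (-0.34 to 0.01) and cytosolic and mitochondrial chaperones (-0.12 to 0.04), and from above to below 0 for natural killer cells (0.10 to -0.12).

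AP array 8 also bore on single genes. Without it, 22 of the 62 genes named here that were called with the term no longer passed, namely Fam132b, Esco2, Cd8b1, H2-Aa, Ccne2, Cdk4, Mcm3, Top1, Rpa3, Rfc3, Gins1, Rrm1, Rad51ap1, Hmgb2, Rad17, Atp5f1, Polr1b, Siglech, Csf1, Hmox1, Nqo1 and Actb. Of 73 called without the term, 2 no longer passed, Ddit3 and Actb.

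**Figure D2:**
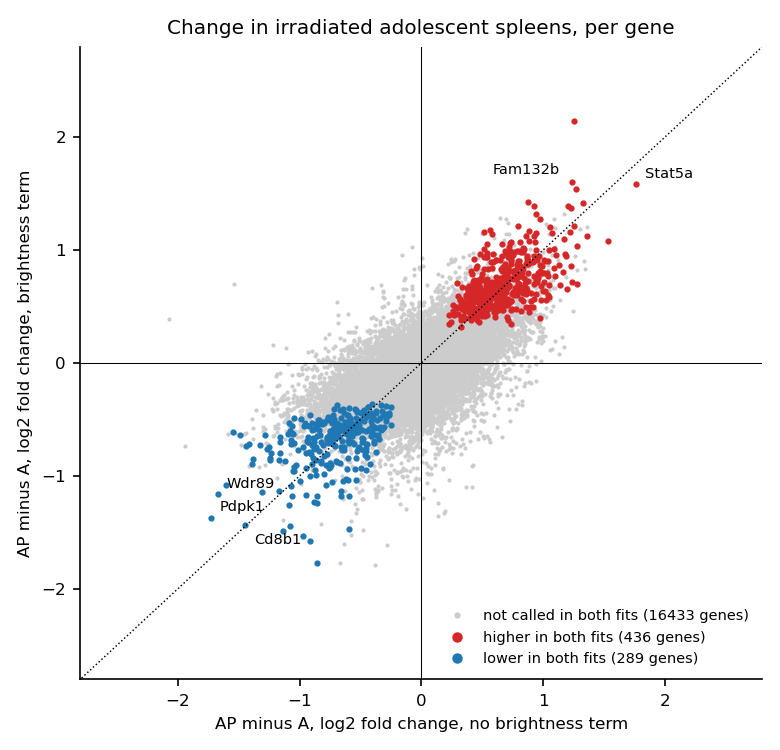
Log2 fold change of AP over A for each of 17158 genes, without (x axis) and with (y axis) the brightness term, with the 436 genes called higher in both fits in red, the 289 called lower in both in blue and all others in grey. The called genes lie along the dotted line of equal change, and Stat5a is farthest to the right.

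Among named genes called in both fits, the 10 with the largest rise were led by Stat5a, a transcription factor that carries signals of erythropoietin, interleukin and growth hormone receptors. Its log2 signal ran from 5.83 to 6.34 on the 7 dim A arrays, was 6.12 and 6.62 on the 2 bright A arrays, and ran from 7.52 to 8.32 (median 8.01) on the 10 AP arrays. All AP arrays were thus above all A arrays, by 3.41-fold without the term (1.77 ± 0.17, adjusted p = 3.25e-09) and by 1.58 ± 0.23 on the log2 scale with it (adjusted p = 0.000491). A second Stat5a probe rose by 0.94 and, with the term, by 0.76. The kinase that activates it beneath the erythropoietin receptor, Jak2, ran from 8.44 to 9.29 on the dim and from 8.48 to 8.85 on the bright A arrays, and from 8.90 to 9.75 in AP. Jak2 rose by 0.69 ± 0.12 (adjusted p = 1.81e-05) and by 0.82 ± 0.16 with the term (adjusted p = 0.00453), and its other probes were at 0.71 and -0.02.

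Of the other rises, those of genes with known roles in red cells or cell division are described first, out of rank order. Fam132b, now named Erfe, encodes erythroferrone, a hormone that erythroblasts secrete to make iron available. It lay between 7.79 and 9.90 on the dim A arrays, at 8.31 and 8.76 on the bright ones, and between 8.79 and 11.79 (median 9.92) in AP, so that the groups overlapped. Its rise was 1.24 ± 0.33 (adjusted p = 0.00369) and 1.61 ± 0.46 with the term (adjusted p = 0.0315), and without AP array 8 the latter was 1.41 with an adjusted p of 0.0552. Cdkn2c, an inhibitor of the kinases Cdk4 and Cdk6, ran from 7.90 to 8.82 in A and from 9.09 to 10.43 in AP, with no overlap. It rose by 1.23 ± 0.18 (adjusted p = 3.69e-06) and by 1.37 ± 0.25 with the term (adjusted p = 0.00358). Xpo7, a nuclear export receptor that takes part in the clearing of the erythroblast nucleus, rose by 1.33 ± 0.27 and 1.42 ± 0.38 in the 2 fits, although its other probes were at 0.04 and -0.32. Esco2, an acetyltransferase that joins sister chromatids in S phase, ran from 7.87 to 8.79 in A and from 9.11 to 10.58 in AP, and rose by 1.36 ± 0.23 and 1.13 ± 0.32.

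The remaining leading rises, of which those of Gabarapl1 and Hnrnpa2b1 ranked above that of Esco2, were genes of autophagy, RNA binding, protein turnover and redox balance. Gabarapl1, a protein of the autophagosome membrane, ran from 7.01 to 7.72 in A and from 8.28 to 9.17 in AP, and rose by 1.25 ± 0.16 and by 1.21 ± 0.23 with the term. Hnrnpa2b1, a splicing regulator, ran from 8.85 to 9.70 in A and from 10.16 to 10.97 in AP and rose by 1.22 ± 0.15 and 1.16 ± 0.21, while its other, dimmer probe fell by 0.37. Neither gene's groups overlapped. Prdx3, the peroxide-reducing peroxiredoxin of mitochondria, ran from 9.41 to 10.44 in A and from 10.73 to 11.96 in AP and rose by 1.05 ± 0.17 and 1.00 ± 0.24. Fbxo3, a subunit of a ubiquitin ligase, and Rab6, a GTPase of Golgi transport now named Rab6a, rose by 1.17 and 1.06 without and by 1.10 and 1.203 with the term, each with overlapping groups and with other probes of mixed sign.

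The largest falls included a T cell coreceptor and a signaling kinase. Cd8b1, the beta chain of the CD8 coreceptor of cytotoxic T cells, ran from 10.03 to 11.22 on the dim A arrays, was 10.40 and 10.63 on the bright ones, and ran from 7.99 to 9.82 (median 9.30) in AP. All AP arrays were below all A arrays, 2.72-fold on average (-1.45 ± 0.28, adjusted p = 0.000146), and the change was -1.44 ± 0.40 with the term (adjusted p = 0.0275) and -1.30 without AP array 8 (adjusted p = 0.0502). Its second probe was at -0.67. Pdpk1, the kinase that activates Akt downstream of phosphoinositide signals, ran from 8.88 to 10.37 in A and from 6.81 to 8.72 in AP and fell by 1.73 ± 0.28 (-1.37 ± 0.38 with the term), and its second probe fell by 1.32.

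H2-Aa, the alpha chain of the class II molecule I-A with which B cells, dendritic cells and macrophages present peptides, was the only class II gene called in both fits. It ran from 10.19 to 12.05 on the dim and was 10.39 and 11.18 on the bright A arrays, against 8.75 to 10.67 (median 9.72) in AP, with overlap. It fell by 1.30 ± 0.23 (adjusted p = 4.62e-05), and was at -1.14 ± 0.32 with the term (adjusted p = 0.031), and without AP array 8 the latter was -1.05 with an adjusted p of 0.0565. Abi3, an adaptor of actin assembly in leukocytes, ran from 9.78 to 10.88 in A and from 7.90 to 9.74 in AP and fell by 1.17 ± 0.18 (-1.13 ± 0.25 with the term), whereas its other probe was at -0.10. Smpdl3b, a membrane lipid phosphodiesterase that restrains Toll-like receptor signals in macrophages, fell by 1.14 ± 0.24 (-1.49 ± 0.33 with the term).

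Among the other leading falls, Plp2, a membrane protein of the secretory pathway, ran from 7.81 to 8.86 in A and from 6.31 to 7.63 in AP and fell by 1.08 ± 0.17 (-1.26 ± 0.23 with the term). Pi16, a secreted peptidase inhibitor homolog found on some T cells and fibroblasts, ran from 7.75 to 8.70 in A and from 5.94 to 7.70 in AP and fell by 1.06 ± 0.18 (-1.18 ± 0.25 with the term). Neither gene's groups overlapped. Chd7, a chromatin remodeler, Cyp4f18, a cytochrome that degrades leukotriene B4 in neutrophils, and Wdr89 fell, with changes of -1.08, -1.07 and -1.67 without and -1.45, -1.09 and -1.16 with the term. The second probe of Wdr89, which was at -0.09, did not fall with the first. In the fit of the bright arrays only, whose direction the choice of these genes largely fixed, the 20 changes ran from 0.97 to 1.70 in size and 6 passed the adjusted p (Stat5a, Cdkn2c, Gabarapl1, Hnrnpa2b1, Rab6 and Plp2).

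**Figure D3:**
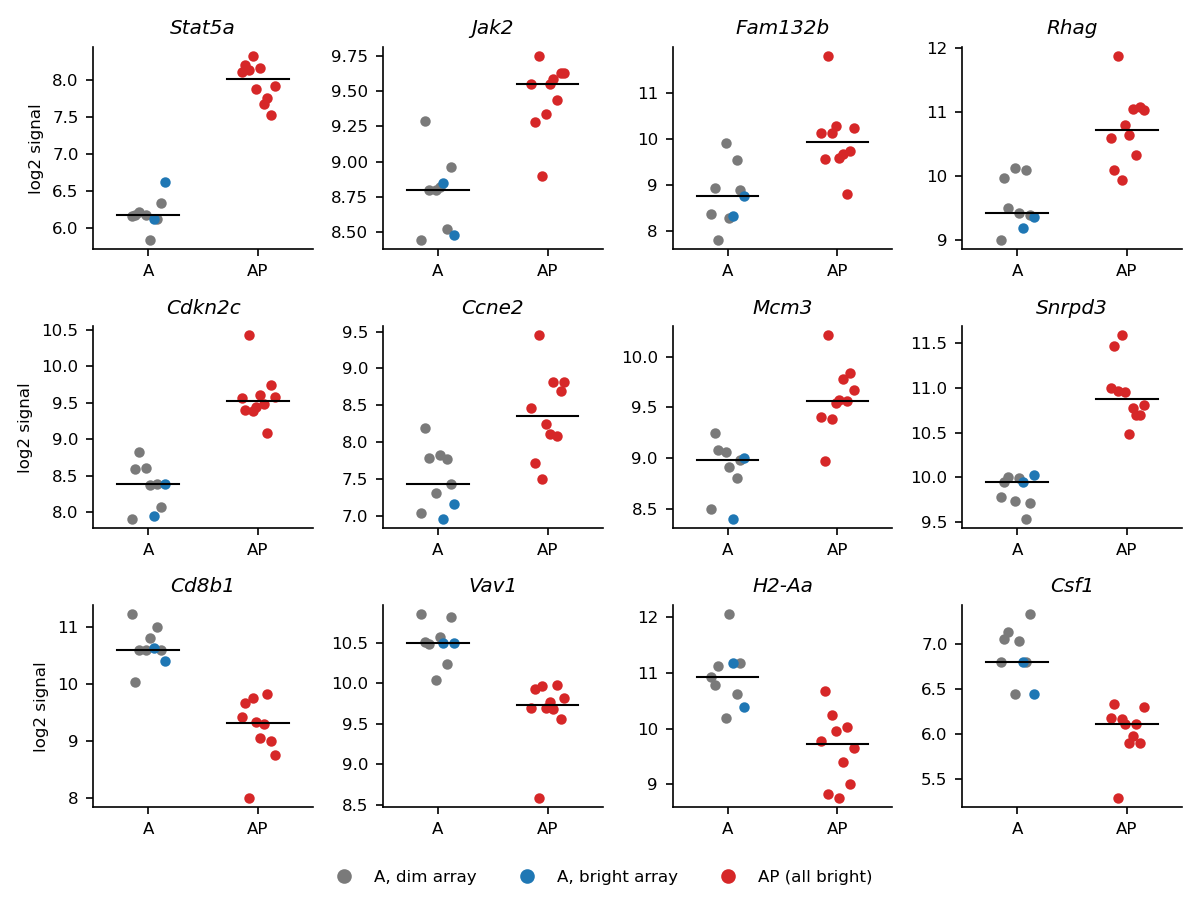
Log2 signal of 12 genes on each A and AP array, 1 point per array, dim A arrays in grey, bright A arrays in blue and AP arrays in red, with the group median as a line. In Stat5a, Cdkn2c, Snrpd3, Cd8b1, Vav1 and Csf1 the AP arrays lie apart from all A arrays, and in Fam132b and H2-Aa the groups overlap.

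Cyclin and kinase genes of the cell cycle were called higher and none lower. Of 29 cyclins, cyclin-dependent kinases (CDKs) and their regulators tested, 13 rose and 0 fell without the term (16.8% and 15.9% of all genes), and 4 rose and 0 fell with it (2 rose without AP array 8). The counts of every list that follows stand against these shares, and against 3.02% higher and 2.67% lower of all genes with the term. Their median change was 0.34 without and 0.26 with the term, and relative to the median of all genes it was 0.52 with array medians aligned. Besides Cdkn2c, the genes called in both fits were Ccne2, Cdk4 and Rbl1. Ccne2, cyclin E2, which starts DNA replication with Cdk2, ran from 6.96 to 8.20 in A and from 7.50 to 9.45 in AP and rose by 0.89 ± 0.25 and 1.17 ± 0.35. Cdk4, the kinase that phosphorylates the retinoblastoma protein in G1, ran from 9.08 to 9.72 in A and from 10.05 to 10.57 in AP, without overlap, and rose by 0.86 ± 0.14 and 0.61 ± 0.19, though a second, dimmer Cdk4 probe fell by 1.07 without the term and was at 0.05 with it. Rbl1, the retinoblastoma relative p107, rose by 0.34 ± 0.11 and 0.54 ± 0.15. Its other, dimmer probes were at 0.07 and 0.26 without and at -0.58 and -0.15 with the term, and were called in neither fit. Cdc2a, now named Cdk1, the kinase of mitotic entry, ran from 9.48 to 10.33 in A and from 10.73 to 11.54 in AP and rose by 1.02 ± 0.21 without the term, and was at 0.69 with it (adjusted p = 0.148).

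Of 41 genes of the replication fork tested, which comprise the MCM helicase, its loading and GINS partners, clamp loaders, polymerases and topoisomerases, 18 rose and 5 fell without the term, and 6 rose and 1 fell with it. The median change was 0.18 without and 0.26 with the term. Mcm3, a subunit of the helicase, ran from 8.40 to 9.25 in A and from 8.97 to 10.21 in AP and rose by 0.71 ± 0.17 (adjusted p = 0.00116) and 0.81 ± 0.23 with the term (adjusted p = 0.0322). Mcm6, another subunit, ran from 9.53 to 10.77 on the dim A arrays, was 10.58 and 11.03 on the bright ones and ran from 11.12 to 11.66 in AP. It rose by 0.95 ± 0.17 without the term, and with it was at 0.43 ± 0.21 (adjusted p = 0.228). Its other probes were at 0.62, -0.13 and -0.79 without the term and at 0.75, 0.22 and -0.12 with it. The first of these was called higher in both fits (adjusted p = 0.046 with the term), and the third was called lower without the term, so probes of the gene differed. Top1, the topoisomerase that relaxes DNA ahead of the fork, rose by 0.92 and 0.89, the clamp loader subunit Rfc3 by 0.54 and 0.70, the single-strand binding subunit Rpa3 by 0.73 and 0.47, and the polymerase delta subunit Pold2 by 0.46 and 0.45. Gins1 was called with the term alone (0.81 ± 0.24), its level of 8.90 to 9.96 in AP lying above the bright (8.20 and 8.66) but overlapping the dim A arrays (8.83 to 9.59). Pold1, the catalytic subunit of polymerase delta, went the other way from Pold2. It ran from 10.62 to 11.76 in A and from 9.83 to 10.36 in AP, and fell by 1.05 ± 0.13 (-0.49 ± 0.13 with the term). Without AP array 8, 16 of the 41 genes rose and 5 fell, and 1 rose and 1 fell with the term. Of the genes of this list that fell, Pold1 alone is named, and the others are counted only.

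The promoters of these genes were searched for the site of E2F factors, which retinoblastoma proteins release as cells enter S phase. The spellings TTTGGCGC, TTTCCCGC, TTTGCCGC and TTTCGCGC were sought on both strands in the 250 bases before each start in the RefSeq promoter table (GRCm38.p6), overlapping matches counted. A match was found in 583 of 27025 genes of the table (2.16%), in 8 of the 33 replication fork genes it holds (24.2%), in 6 of 21 cyclin and CDK genes (28.6%), in 1 of 17 nucleotide synthesis genes (5.88%), in 7 of 25 S phase genes (28%) and in 3 of 40 G2/M genes (7.5%). Among tested genes matched by symbol the share was 3.48%. Over all 5 lists 20 of 122 tested genes had a match (16.4%), and of the 46 that rose without the term 6 had one (13%), which is no larger a share. These 6 were Cdc25a, Cdk1, Mcm6, Mcm7, Rbl1 and Rfc3, and 5 of them are shown because their values are described here, 5′ to 3′ on the gene's strand with the matched letters in capitals.
Mcm6, minus strand, chr1:128359715-128359845: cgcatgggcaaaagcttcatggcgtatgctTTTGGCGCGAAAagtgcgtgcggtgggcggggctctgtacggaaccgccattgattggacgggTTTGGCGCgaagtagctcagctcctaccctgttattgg
Mcm7, minus strand, chr5:138172011-138172078: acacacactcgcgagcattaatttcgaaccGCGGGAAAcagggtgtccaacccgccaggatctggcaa
Rfc3, minus strand, chr5:151651209-151651248: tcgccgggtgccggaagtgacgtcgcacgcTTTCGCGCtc
Rbl1, minus strand, chr2:157204535-157204582: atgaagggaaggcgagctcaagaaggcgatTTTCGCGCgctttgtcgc
Cdk1, minus strand, chr10:69353006-69353073: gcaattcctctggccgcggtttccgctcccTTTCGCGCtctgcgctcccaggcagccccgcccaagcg
Mcm6 held 3 matches, 2 of them overlapping on opposite strands, and Mcm3, Top1, Rpa3 and Pold2, which rose in both fits, held none in this window. A match describes letters only, and the binding of a factor was not measured.

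Of 20 nucleotide synthesis genes tested, 7 rose and 2 fell without the term and 3 rose and 0 fell with it, with medians of 0.19 and 0.32. The genes named here are rises, and the 2 that fell are counted only. Rrm1, the large subunit of ribonucleotide reductase, which makes deoxynucleotides, ran from 10.65 to 11.52 on the dim A arrays, was 10.85 and 10.95 on the bright ones and ran from 11.28 to 12.19 in AP. It rose by 0.62 ± 0.16 and 0.76 ± 0.22. Cad, which begins pyrimidine synthesis, rose by 0.45 ± 0.10 and 0.48 ± 0.13, and Gart, of purine synthesis, by 0.36 ± 0.09 and 0.46 ± 0.13, although a second Gart probe fell by 0.37.

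In lists of genes whose RNA peaks in S phase and in G2/M phase, the counts were 12 up and 4 down of 37, and 11 up and 7 down of 47, without the term. With it they were 4 up and 1 down, and 3 up and 0 down, and the medians were 0.30 and 0.17. The counts with the term were 1 up and 0 down in each list without AP array 8, and without A array 3 and AP array 3 the G2/M list had 6 up. The genes described next were all called higher in at least 1 fit. Falls of both lists are counted only, apart from Polr1b, described below with ribosome biogenesis. Rad51ap1, a factor of homologous recombination, ran from 6.93 to 8.00 in A and from 7.53 to 8.99 in AP and rose by 0.72 ± 0.21 and 1.03 ± 0.29. Hmgb2, a chromatin protein of dividing cells, ran from 10.32 to 11.04 in A and from 11.26 to 12.07 in AP, without overlap, and rose by 0.88 ± 0.19 and 0.88 ± 0.27. Kif11, the motor that separates spindle poles, rose by 0.53 ± 0.16 and 0.94 ± 0.21. Atad2, a coactivator of E2F targets, was called with the term alone, at 0.92 ± 0.25, and AP (6.03 to 7.92) overlapped the dim A arrays (6.40 to 7.17) while lying above both bright ones (5.77 and 5.78). AP array 8 had both the highest erythroid mean (12.23) and the highest replication fork mean (9.60) of the 19 arrays, and the part of erythroid cells in these rises was not tested.

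Of 35 genes of double-strand break repair 14 rose and 4 fell without the term, and 2 rose and 0 fell with it, Rad51ap1 and Rad17, the latter a loader of the checkpoint clamp that rose by 0.41 ± 0.09 and 0.38 ± 0.12. Without AP array 8, 10 rose and 6 fell without the term and 0 were called with it, Rad51ap1 having an adjusted p of 0.0572 and Rad17 of 0.0861. Of 38 genes of excision and mismatch repair 9 rose and 6 fell, and 0 rose and 1 fell with the term. The p53 pathway, which answers DNA damage, gave 6 up and 5 down of 28 targets tested without the term (16.8% and 15.9% of all genes) and 1 up and 0 down with it, with medians of 0.08 and 0.02. That gene was Ei24, a p53-induced membrane protein of autophagy, which ran from 7.25 to 8.26 in A and from 8.54 to 9.10 in AP, without overlap, and rose by 1.05 ± 0.13 (adjusted p = 3.07e-07) and 0.70 ± 0.16 (adjusted p = 0.00876). A second Ei24 probe rose by 0.67 without the term, and with it was at 0.21 and not called (adjusted p = 0.542). Apoptosis genes numbered 6 up and 3 down of 27 without the term.

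Genes of RNA splicing, protein breakdown and mitochondria were called in both directions, and their counts stand against 16.8% higher and 15.9% lower of all genes without the term and 3.02% and 2.67% with it. Of 39 spliceosome genes 17 rose and 5 fell without the term, and 5 rose and 1 fell with it, with medians of 0.25 and 0.13. Snrpd3, a core protein of spliceosomal particles, ran from 9.53 to 10.02 in A and from 10.48 to 11.59 in AP and rose by 1.10 ± 0.15 and 0.77 ± 0.20. Snrpd1, of the same ring, ran from 9.63 to 10.30 on the dim A arrays, was 10.47 and 10.83 on the bright ones and ran from 11.19 to 11.71 in AP, rising by 1.28 ± 0.17 and 0.70 ± 0.19. Lsm8, a subunit of the ring on U6 RNA, ran from 8.59 to 9.22 in A and from 9.65 to 10.29 in AP and rose by 1.09 ± 0.10 (adjusted p = 2.97e-09) and 0.85 ± 0.13 (adjusted p = 0.000491). All 3 had AP arrays wholly above A arrays. Of 26 proteasome genes 10 rose and 6 fell without the term, and with it Psmd12, a subunit of the regulatory cap, alone was called (0.69 ± 0.18). Of 28 genes of the amino acid response 7 rose and 4 fell, and 4 rose and 0 fell with the term, among them Eprs, which charges tRNAs with glutamate and proline (1.13 ± 0.17 and 0.86 ± 0.23), and Ddit3, a transcription factor of the stress response (0.54 ± 0.21 and 0.98 ± 0.28). Without AP array 8 the first Ddit3 value was 0.37 (adjusted p = 0.128). A second, dimmer Ddit3 probe was at 0.05 without and 0.53 with the term and was called in neither fit. Without A array 3 and AP array 3, 2 genes of the list fell in place of 4. Of 34 genes of oxidative phosphorylation 12 rose and 6 fell, and 6 rose and 1 fell with the term (3 rose and 1 fell without AP array 8). Ndufa4 of the respiratory chain rose by 0.73 ± 0.10 and 0.55 ± 0.13, Atp5f1 of ATP synthase by 0.62 ± 0.15 and 0.71 ± 0.21, and Cox4i1 of cytochrome oxidase fell by 0.85 ± 0.11 (-0.50 ± 0.13 with the term).

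Ribosome biogenesis genes gave mostly falls without the term, with 5 up and 10 down of 21, a median of -0.32 and, with array medians aligned, 0.01 relative to all genes. With the term 0 rose and 1 fell, Polr1b, a core subunit of RNA polymerase I, which ran from 6.82 to 7.73 in A and from 5.88 to 6.95 in AP and fell by 0.69 ± 0.12 (-0.53 ± 0.16 with the term). Of 33 ribosomal protein genes 8 rose and 6 fell without the term. Of 25 actomyosin genes 6 rose and 9 fell without the term, and 3 rose and 2 fell with the term. Rock1, the kinase that activates myosin, ran from 7.51 to 7.98 in A and from 8.08 to 9.52 in AP and rose by 1.01 ± 0.15 and 0.92 ± 0.20. Mylc2b, a myosin light chain now named Myl12b, ran from 11.13 to 11.71 in A and from 9.57 to 11.09 in AP and fell by 0.80 ± 0.15 (-0.98 ± 0.20 with the term). Actb, beta actin, often taken as a reference gene, fell by 0.40 ± 0.14 (-0.61 ± 0.19 with the term), and was at 0.12 with array medians aligned. Hsp90aa1, the inducible cytosolic Hsp90, fell by 0.92 ± 0.16 (-0.78 ± 0.22 with the term), and Nqo1, a quinone reductase of the antioxidant response, rose by 0.89 ± 0.24 and 1.08 ± 0.34.

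T cell genes were called lower and none higher in AP. Of 18 tested, 7 fell and 0 rose without the term (15.9% and 16.8% of all genes), with a median of -0.34, and relative to all genes the median was -0.35 with quantile normalization and -0.21 with array medians aligned. With the term the median was -0.65, 17 of the 18 were below 0, and 1, Cd8b1, was called. The mean log2 signal of the list ran from 7.07 to 8.17 on the dim A arrays, was 7.76 and 7.78 on the bright ones and ran from 6.60 to 7.67 (median 7.29) in AP, so the bright A arrays lay above every AP array. Cd3e, a chain of the T cell receptor complex, ran from 8.08 to 9.41 in A and from 6.86 to 8.58 in AP and fell by 1.02 ± 0.23 (adjusted p = 0.000763), and with the term was at -0.66 ± 0.31 (adjusted p = 0.214). Lat, the adaptor that links the receptor to calcium and Ras signals, ran from 6.74 to 8.51 in A and from 5.58 to 6.85 in AP and fell by 1.38 ± 0.24, and was at -0.67 ± 0.29 with the term. Without AP array 8, 6 fell without the term and 0 with it. Of 16 genes of T cell activation and checkpoint 5 fell and 0 rose without the term (3 fell and 1 rose without AP array 8) and 0 were called with it. Il2ra, the CD25 chain of the interleukin-2 receptor, ran from 4.97 to 5.68 in A and from 4.92 to 5.45 in AP (-0.24 ± 0.19, adjusted p = 0.355), and was above background on 5 of 9 A and 2 of 10 AP arrays.

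Of 13 B cell identity genes tested, 2 fell and 0 rose without the term (15.9% and 16.8% of all genes), with a median of -0.01, and with it 0 were called though all 13 were below 0 (median -0.56). The mean of the list was 7.90 to 9.38 on the dim A arrays, 8.90 and 9.03 on the bright ones and 7.53 to 9.15 (median 8.61) in AP. Cd22, an inhibitory receptor of B cells, fell by 0.78 ± 0.25 without the term and was at -0.54 ± 0.35 with it, and its other probes were at 0.09 and -0.25.

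Signaling genes below the B cell receptor gave more falls than rises, with 1 up and 8 down of 20 without the term (16.8% and 15.9% of all genes) and 0 up and 1 down with it. The medians were -0.23 and -0.48, and without the term and with array medians aligned the list stood at 0.02 relative to all genes, so that its direction there turned. Vav1, the exchange factor that relays antigen receptor signals to the cytoskeleton in B and T cells, ran from 10.04 to 10.85 in A and from 8.58 to 9.98 in AP, with no overlap. It fell by 0.84 ± 0.14 (adjusted p = 2.3e-05), and was at -0.78 ± 0.20 with the term (adjusted p = 0.017). Plcg2, the phospholipase of the same pathway, ran from 9.83 to 10.71 in A and from 8.06 to 9.70 in AP, again with no overlap, and fell by 1.03 ± 0.18, with a change of -0.62 ± 0.23 with the term (adjusted p = 0.101). AP array 8 was the lowest for both. Plasma cell genes gave 1 up and 2 down of 10, and natural killer cell genes 0 up and 1 down of 12, without the term and 0 called with it. Klrb1c, which encodes NK1.1, ran from 4.70 to 5.64 in A and from 4.30 to 5.64 in AP (0.09 ± 0.19), near the detection limit, being above background on 3 of 9 A and 8 of 10 AP arrays.

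**Figure D4:**
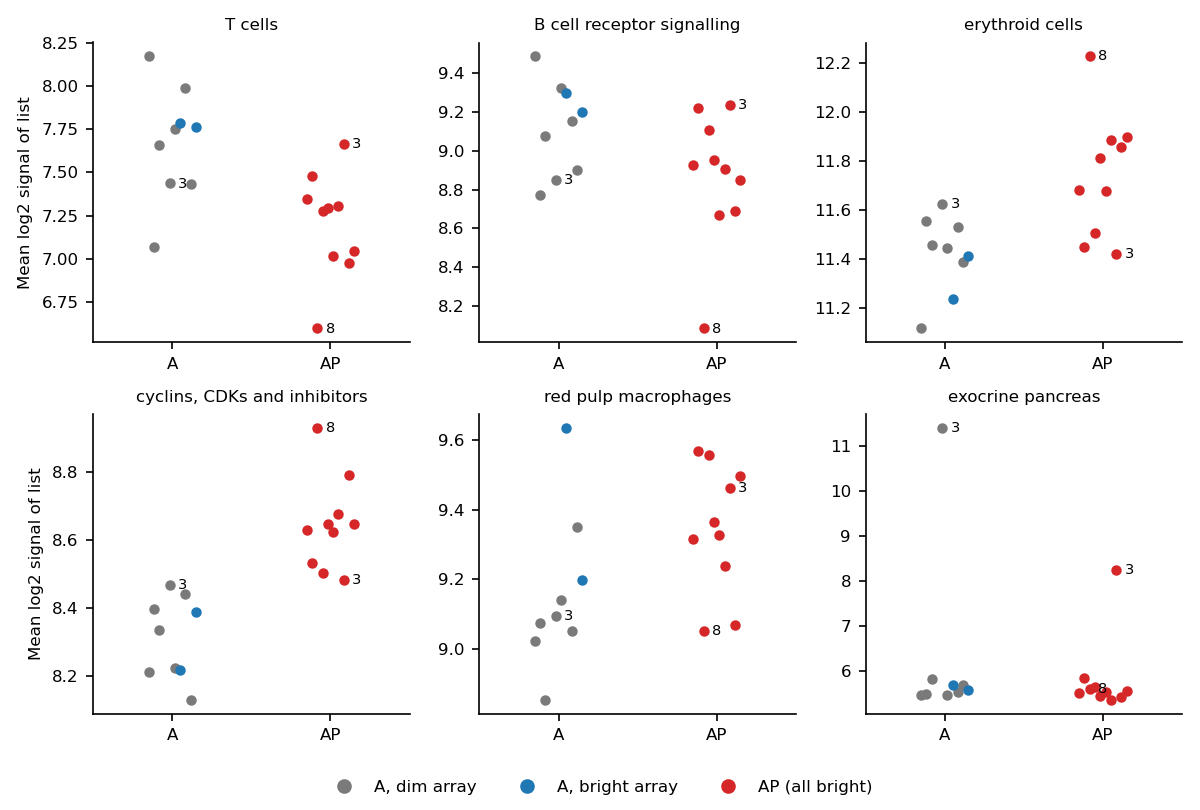
Mean log2 signal of 6 gene lists on each A and AP array, 1 point per array, coloured as dim A (grey), bright A (blue) and AP (red), with A array 3 and AP arrays 3 and 8 numbered. AP array 8 is highest for erythroid cells (12.23) and lowest for T cells (6.60), and arrays 3 of both groups stand out for exocrine pancreas (11.40 and 8.24).

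Antigen presentation by class II molecules gave 0 up and 3 down of 16 without the term (16.8% and 15.9% of all genes) and, with it, 1 down, H2-Aa, with medians of -0.14 and -0.43, while the first stood at 0.26 relative to all genes with array medians aligned. The counts without AP array 8 were 1 down without the term and 0 with it. Cd74, the invariant chain that escorts class II molecules, ran from 12.20 to 13.92 in A and from 12.21 to 13.93 in AP, and its change was 0.13 ± 0.19 without and -0.32 ± 0.25 with the term (adjusted p = 0.634 and 0.501). Its other probes were at 0.14 and 0.25 without and at -0.35 and -0.26 with the term, and were not called. H2-Ab1, the partner chain of H2-Aa, was at 0.06 and -0.47 and was not called in either fit. Class I presentation gave 4 up and 2 down of 16, and with the term only Psme2, an interferon-induced activator of the proteasome, was called. Psme2 ran from 7.00 to 7.72 in A and from 8.16 to 8.58 in AP, without overlap, and rose by 1.02 ± 0.13 and 0.64 ± 0.15. Siglech, a surface lectin of plasmacytoid dendritic cells, ran from 6.33 to 7.70 in A and from 5.76 to 6.69 in AP and fell by 0.91 ± 0.21 (-1.004 ± 0.30 with the term), while its other, dimmer probe rose by 0.45.

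Erythroid genes were higher in part. Of 25 tested 8 rose and 1 fell without the term (16.8% and 15.9% of all genes) and 1 rose and 0 fell with it, with medians of 0.16 and 0.24, and 22 of 25 were above 0 with the term. The mean of the list ran from 11.12 to 11.63 on the dim A arrays, was 11.24 and 11.41 on the bright ones and ran from 11.42 to 12.23 (median 11.75) in AP. Rhag, a channel of the red cell membrane, ran from 9.00 to 10.13 in A and from 9.94 to 11.87 in AP and rose by 1.18 ± 0.33 (adjusted p = 0.00602), and was at 1.32 ± 0.47 with the term (adjusted p = 0.0834). The globin Hbb-b1, among the brightest probes, ran from 14.54 to 14.93 in A and from 14.35 to 14.84 in AP and was not called (-0.17 ± 0.08, adjusted p = 0.0988), and its probes may also read other globin genes. With AP array 8 left out, 6 erythroid genes rose and 1 fell, and 0 were called with the term. Heme and iron genes gave 1 up and 5 down of 20 without the term. These, and the erythroid gene that fell, are counted only and not named.

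Macrophages of the red pulp gave 6 up and 1 down of 16 without the term (16.8% and 15.9% of all genes), and with it 0 up and 1 down. Spic, the transcription factor that defines them, ran from 8.71 to 9.30 on the dim A arrays, was 9.09 and 10.03 on the bright ones and ran from 9.64 to 10.07 in AP, rising by 0.75 ± 0.16 without the term, with a change of 0.56 ± 0.22 with it (adjusted p = 0.11). Vcam1, an adhesion molecule of these cells and of stroma, rose by 0.79 ± 0.16, and C1qb, of the complement component C1q, by 0.61 ± 0.22, and neither passed with the term (adjusted p = 0.317 and 0.309). Emr1, now named Adgre1, a surface marker of mouse macrophages, moved the other way, from 7.70 to 9.00 in A to 7.01 to 7.91 in AP, and fell by 0.85 ± 0.24 without the term. With the term it was at -0.26 ± 0.30, and its other probes were at 0.01 and 0.54, the latter called, so probes of the gene differed in sign. Hmox1, heme oxygenase 1, which breaks down heme from engulfed red cells, fell by 1.33 ± 0.41 with the term alone. AP (5.63 to 8.53) overlapped the dim A arrays (6.63 to 8.07) for it, and the bright A arrays were at 8.00 and 8.57. Ly6a, which encodes Sca-1, ran from 10.58 to 12.04 in A and from 10.47 to 12.03 in AP (0.11 ± 0.20 and -0.34 ± 0.26, neither called).

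Neutrophil, monocyte and progenitor lists gave few calls. Of 16 mature neutrophil genes 3 fell and 0 rose without the term, and Il8rb, now named Cxcr2, the chemokine receptor of neutrophils, fell by 1.25 ± 0.34 with the term alone, its AP range (5.85 to 8.20) overlapping the dim A arrays (6.84 to 7.68) below bright A arrays at 8.40 and 8.77. Of 9 monocyte genes 0 were called in either fit. Of 9 progenitor genes 2 rose and 0 fell without the term, and 0 rose and 1 fell with it. Of 17 stromal and endothelial genes 5 rose and 1 fell without the term and 0 were called with it.

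Among cytokine pathways, 29 genes of cytokine receptors and JAK-STAT signaling gave 3 up and 4 down without the term and 2 up and 0 down with it, Stat5a and Jak2, while the medians were -0.13 and -0.27. With array medians aligned the first stood at 0.14 relative to all genes, so that its direction turned, and without AP array 8, 2 fell in place of 4. Of 30 cytokine and chemokine genes 3 rose and 3 fell (1 rose and 5 fell without A array 3 and AP array 3), and 0 rose and 2 fell with the term. Csf1, the growth factor of macrophages, ran from 6.44 to 7.33 in A and from 5.29 to 6.34 in AP, without overlap, and fell by 0.84 ± 0.13 (adjusted p = 7.88e-06), and was at -0.59 ± 0.17 with the term (adjusted p = 0.0354). Of 30 interferon-stimulated genes 10 rose and 4 fell without the term (2 fell without AP array 8), and with it 1 rose, Irf9, the DNA-binding part of the interferon-activated factor, by 0.57 ± 0.16 after 0.71 ± 0.12. Tgfb1, the growth factor that restrains lymphocytes, ran from 9.28 to 10.69 in A and from 8.90 to 9.72 in AP and fell by 0.46 ± 0.15 without the term (adjusted p = 0.0192). With the term it was at -0.17 ± 0.20, and with array medians aligned at 0.26, so its direction depended on the scaling.

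**Figure D5:**
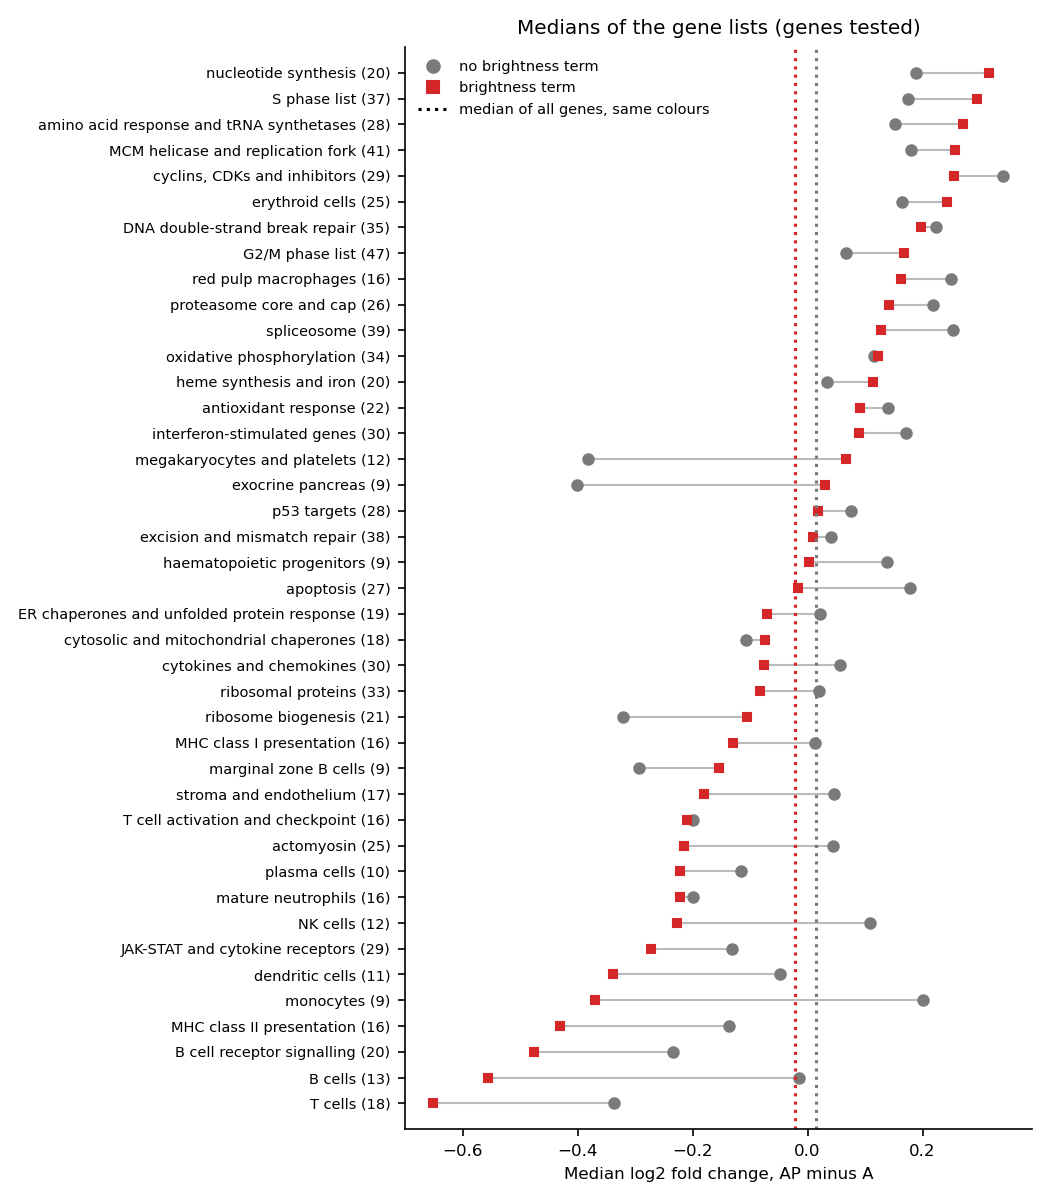
Median log2 fold change of AP over A of 41 gene lists with at least 9 genes tested (number in brackets), without (grey circles) and with (red squares) the brightness term, with the medians of all genes as dotted lines. Nucleotide synthesis and S phase lists lie highest and T cell and B cell lists lowest with the term.

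The study also measured Cdk2, Mcm7, Ruvbl2, Cd74 and Tgfb1 by PCR, so their array values are given in full, those of Cd74 and Tgfb1 above. By PCR the paper reports significant increases of Cdk2, Mcm7, Ruvbl2 and Tgfb1 in AP over A, and Cd74 as higher. Tgfb1 thus went the other way on the arrays in the fit without the term, and Cd74 was not called. From its own array values, after batch correction, the paper reports Cdk2, Mcm7 and Ruvbl2 as higher and Cd74 as lower in AP. It takes that fall of Cd74 as a false positive. Mcm7, a helicase subunit, ran from 9.03 to 10.04 in A and from 10.01 to 10.47 in AP and rose by 0.58 ± 0.19 (adjusted p = 0.0142), and was at 0.30 ± 0.25 with the term (adjusted p = 0.543). Its second probe was at -0.15 without and -0.19 with the term. Ruvbl2, an ATPase of chromatin remodeling and repair complexes, ran from 8.63 to 9.08 on the dim A arrays, was 9.07 and 9.13 on the bright ones and ran from 9.19 to 9.73 in AP. It rose by 0.52 ± 0.11 (adjusted p = 0.000496) with all AP arrays above all A arrays, and was at 0.33 ± 0.15 with the term (adjusted p = 0.19). Cdk2, the partner of cyclin E, ran from 10.93 to 11.55 in A and from 11.14 to 11.67 in AP, and was not called (0.21 ± 0.09 and -0.02 ± 0.11). The brightest Cdk2 probe gave those values. Its other probes were at 0.67, 0.82 and 0.27 without the term, the first and second of them called. With the term they were at 0.58, 0.94 and 0.67, the second of them called (adjusted p = 0.0111), so probes of the gene differed. Of the 40 genes the study named as key to its comparison of AP with A, 22 rose and 5 fell without the term and 11 rose and 0 fell with it (6 rose without AP array 8), with medians of 0.34 and 0.37. That list was chosen on these same samples, so its counts are not independent evidence of a direction.

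The difference between the change in old spleens (OP over O) and that in adolescent spleens passed the adjusted p for 101 of 17158 genes (0.589%) without and for 220 (1.28%) with the term, 151 of these positive and 69 negative. Plp2 had the lowest adjusted p among the genes named here, with a change of 0.38 in old spleens (adjusted p = 0.0859) against the fall of 1.08 in adolescent ones, a difference of 1.47 (adjusted p = 0.00124 without and 0.000871 with the term). Polr1b differed by 0.75 (adjusted p = 0.0206), being at 0.06 in old spleens. With the term Vav1 and Mylc2b also differed, by 0.76 and 0.79, and Rbl1 and Lsm8 by -0.57 and -0.50, with adjusted p between 0.0438 and 0.0462. Stat5a rose in old spleens too, by 0.94 without the term (adjusted p = 6.28e-05), and was at 0.75 with it (adjusted p = 0.125), and the difference from adolescent spleens was -0.83 (adjusted p = 0.0601 with the term). Of the other leading genes, Wdr89 (-1.30), H2-Aa (-0.94), Pdpk1 (-0.71), Gabarapl1 (0.74) and Hnrnpa2b1 (0.74) were also called in old spleens without the term, in the adolescent direction. With the term none of these was called there, and the remaining leading genes were called there in neither fit. Fam132b, Rhag and Cd8b1 were at -0.13, 0.08 and -0.50 in old spleens, none of them called, and their differences from adolescent spleens, -1.37, -1.10 and 0.95, did not pass.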

How the data were processed

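RNA of 38 spleens was hybridized to Illumina bead arrays (Mouse WG-6). Per the file headers, the authors deposited linear intensities, the mean signal over the beads of each probe, that were not normalized, and background was not subtracted. The authors' later batch correction (COMBAT) and quantile normalization are not in these values and were not used here. Bead depth is unknown, and the number of arrays limits the precision.

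Column names give the group only, so arrays were numbered by column order, and 0 columns were left unmapped. No pair of arrays was identical (0 pairs). From the deposited intensities, background was corrected by normexp (offset 16), arrays were quantile normalized and log2 values were taken. The table used holds no detection p-values, although the plan had assumed them, so a probe counted as detected above the 95 percentile of background. Probes detected on at least 9 arrays were kept (23909 of 45281), and each of 17158 genes took its kept probe of highest mean (4689 had more than 1). 40 symbols turned into dates were kept as probes. Symbols matched RefSeq directly for 10594 genes, through a synonym for 3215 and not at all for 3349.

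All 4 groups entered each limma fit (limma 3.58.1, R 4.3.3), with and without brightness (bright or dim) as a term, and p-values were adjusted over all genes at 0.05. The p-values set each difference between groups against the spread between these arrays within groups. Without the term they do not separate irradiation from brightness. Lists are described by counts and medians only. Promoters were read with Python 3.11.15, and figures were drawn with matplotlib 3.10.9. The fits were tested on simulated data.

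Members, lists and tests were chosen with earlier results of these data known. Genes named are the 10 largest rises and 10 largest falls called in both fits (clone and predicted symbols left out, ranked by the smaller change), genes the study measured by PCR or as protein markers, and the leading called members of each list, except that 1 of them is not reported here. Cdk4, Rbl1, Mcm3, Rpa3, Rfc3, Pold2, Gart, Atad2, Hmgb2, Hbb-b1, Spic, C1qb, H2-Ab1 and Cdc25a fall outside that rule and were chosen after their values were seen. Alternatives covered background correction, normalization, probe filter, probes per gene, array weights, arrays in the fit, brightness as a continuous term, the test, the call rule and single arrays left out. Leaving out arrays 3 of A and AP, and the 7 dim A arrays against AP, were added after the data were seen.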

Additional observations from a re-analysis of the deposited data

Results flagged for a closer look

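In 168 checks, 1 for each named gene in A and in AP, 17 single arrays lay far from the others of their group, where chance gives about 1 in 20. Most were AP array 8. It was the highest AP array for Fam132b (log2 signal 11.79, next 10.28), Cdkn2c (10.43, next 9.74) and Eprs (9.43, next 8.57). It was the lowest AP array for Cyp4f18 (7.38, next 8.01), Pi16 (5.94, next 6.88), Cd22 (7.02, next 7.93), Vav1 (8.58, next 9.56), Plcg2 (8.06, next 9.15), Csf1 (5.29, next 5.90), Klrb1c (4.30, next 4.99), Il8rb (5.85, next 6.95), Mylc2b (9.57, next 10.46) and Actb (12.86, next 13.55).

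AP array 7 was the lowest for Irf9 at 9.38 (next 9.81). Among A arrays, array 1 was the lowest for Prdx3 at 9.41 (next 10.07), and array 9 the highest for Vcam1 at 12.67 (next 11.86) and for Spic at 10.03 (next 9.30).

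The change in old spleens minus that in adolescent spleens passed the adjusted p from limma without the brightness term for Plp2 (1.47, adjusted p = 0.00124) and Polr1b (0.75, adjusted p = 0.0206). With the term it also passed for Vav1 (0.76, adjusted p = 0.0462), Mylc2b (0.79, adjusted p = 0.0449), Rbl1 (-0.57, adjusted p = 0.0449) and Lsm8 (-0.50, adjusted p = 0.0438).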

How the results depend on the processing

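Values are percent of the genes tested. Without the brightness term 32.7% were called, and this stayed within 1.5 times except with no filter on dim probes (17.8%) and at 1.5-fold or more (11.5%). With single arrays left out it ranged from 29.5% to 35.1%. With the term 5.69% became 1.73% with array medians aligned, 2.08% with no filter, 13% for probes detected on all 19 A and AP arrays, 16.9% with array quality weights, 0.216% with A and AP arrays only, 0.868% among bright arrays only, 11.5% with log2 brightness as a continuous term and 3.71% at 1.5-fold or more. In both fits 4.23% became 0.804%, 1.56%, 9.89%, 11.8%, 0.198%, 0.804% and 11% under the first 7 of these. With single arrays left out, bright O arrays included, the shares ranged from 1.21% to 7.55% with the term and from 0.863% to 5.54% in both fits. The age difference (0.589%) became 1.28% with the term and 0.122% with array medians aligned.

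Directions turned for Tgfb1 (0.2638) and Actb (0.1206) without the term when array medians were aligned. With the mean of all kept probes they turned for Cdk4 (-0.1022) and Gart (-0.0077) without the term and for Cdk2 (0.5429) and Rbl1 (-0.0624) with it. Of 73 named genes called without the term, 18 lost the call with array medians aligned. Of 62 called with it, 55 lost it with A and AP arrays only, 49 among bright arrays only, 45 with array medians aligned, 43 or 44 without 1 bright A array, 37 without O array 9 and 22 without AP array 8. The cause was not tested. No paired analysis was possible because the value columns carry no replicate numbers. Gene lists were recomputed only with array medians aligned, without AP array 8 and without arrays 3 of A and AP. Il2ra and Klrb1c were near the detection limit.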

Other observations

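Other cell types were covered by lists that the comparison above did not use. Of 9 marginal zone B cell genes, 1 rose and 2 fell without the term and 0 were called with it. Of 12 genes of megakaryocytes and platelets, 1 rose and 1 fell without the term and 0 were called with it. Of 7 immature neutrophil genes, 0 rose and 1 fell, and of 7 genes of basophils and mast cells, 1 rose and 1 fell, again without the term only. Of 5 genes of marginal zone macrophages and 3 adipocyte genes, 0 were called in either fit.

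Protein folding in the endoplasmic reticulum gave 4 up and 3 down of 19 genes without the term and 0 up and 1 down with it. Cytosolic and mitochondrial chaperones gave 3 up and 7 down of 18 without the term, and with it Hsp90aa1 was the gene called lower. Antioxidant genes gave 7 up and 3 down of 22 without the term and 2 up and 1 down with it, Prdx3 and Nqo1 being higher in both fits.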
